A study of Mus musculus with 24 samples.

Results

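The miR-130 and miR-301 family comprises miR-130a, miR-130b, miR-301a and miR-301b, microRNAs (miRNAs, short regulatory RNAs that repress matching messenger RNAs) that share 1 seed, the stretch near the 5′ end of a miRNA that pairs with its targets. Its members were taken by name: all 4 names, mmu-miR-130a, mmu-miR-130b, mmu-miR-301a and mmu-miR-301b, were found among the 650 names of the array, and all 4 were among the 322 miRNAs tested. The samples were whole lungs of C57BL/6 mice at 5 ages after birth: day 1, day 4, day 7 and day 14 with 5 biological replicates at each age, and 6 weeks (called day 42 in what follows) with 4. No treatment or genetic change is named in the labels, the sex of the mice is not given, and the title of the study speaks of fetal lungs although every sample label gives an age after birth. Total RNA of each lung was hybridised to its own 1-colour Agilent miRNA array, and the comparison is one of ages.

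Because a seed of 7 bases largely sets which messages a miRNA can pair with, members of 1 seed family are held to share many targets. In human endothelial cells miR-130a is known to lower GAX (MEOX2) and HOXA5, which restrain vessel growth. The family is also known to lower PPARγ, a nuclear receptor, in fat cell precursors and in vascular cells, and its members are known to be raised in pulmonary hypertension. After birth the mouse lung passes from the saccular stage through the division of its air spaces into alveoli to the mature lung.

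The mature sequences below are shown because the family is defined by them, with the seed (bases 2 to 8) in capitals. They are RefSeq sequences of the mouse build GRCm38.p6, and miR-721 is added as another name on the array with the same seed.
miR-130a: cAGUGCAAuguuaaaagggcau
miR-130b: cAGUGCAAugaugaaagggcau
miR-301a: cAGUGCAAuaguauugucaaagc
miR-721: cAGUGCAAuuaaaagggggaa

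The first 9 bases were the same in these 4 sequences. Over their 22 bases, miR-130a and miR-130b differed at 2 positions, U11A and A13G (the base of miR-130a first, positions counted from the 5′ end), and their first 10 bases were the same. Probes for sequences this close can share signal, and how far these do so was not tested. The mature sequence of miR-301b is not shown here.

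The 4 members come from 3 places in the genome (RefSeq, GRCm38.p6). Mir130a lies at chr2:84741115-84741178 on the minus strand, overlaps no annotated gene, and is 2460 bases from the nearest protein-coding gene, Ypel4. Mir130b, at chr16:17124061-17124142, and Mir301b, at chr16:17124400-17124496, both lie on the minus strand inside the gene 2610318N02Rik, with 257 bases between them. Mir301, the gene of miR-301a, lies at chr11:87113004-87113089 on the plus strand inside Ska2, a gene whose product acts at the kinetochore.

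A scaled signal is the sum of the background-subtracted intensities of a miRNA's probes, divided by the 75th percentile of 228 common miRNAs, those detected on all arrays, and brought to 1 shared intensity, so that it stands for a level relative to the other miRNAs of the same lung. That percentile ran from 923 to 4953 intensity units over the 24 arrays, and 266 to 348 miRNAs were detected per array. Signals of different probes are not on 1 scale, so levels were compared between ages for each member and not between members. A miRNA was called changed at an adjusted p under 0.05 (limma, Benjamini-Hochberg over the 322 tested miRNAs), and n is 5 arrays for days 1, 4, 7 and 14 and 4 arrays for day 42 throughout.

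All 4 members differed between the ages (F-test of limma, adjusted p 3.35e-07 for miR-130a, 1.23e-10 for miR-130b, 5.93e-05 for miR-301a and 3.07e-12 for miR-301b), where 65.5% of all tested miRNAs did. Each was lower at day 42 than at day 1 (miR-130a not so with no scaling of the arrays). All 4 fell at day 14 against day 7 and again at day 42 against day 14. The means of miR-130b and miR-301b had already fallen before that, from 9.30 and 6.45 at day 1 to 8.51 and 5.56 at day 7 (log2). The mean log2 signals of miR-130b and miR-301b were lower at day 4 than at day 1, whereas those of miR-130a and miR-301a lay 0.16 and 0.15 above their day 1 values, and of these differences only that of miR-301b was called.

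**Figure D1:**
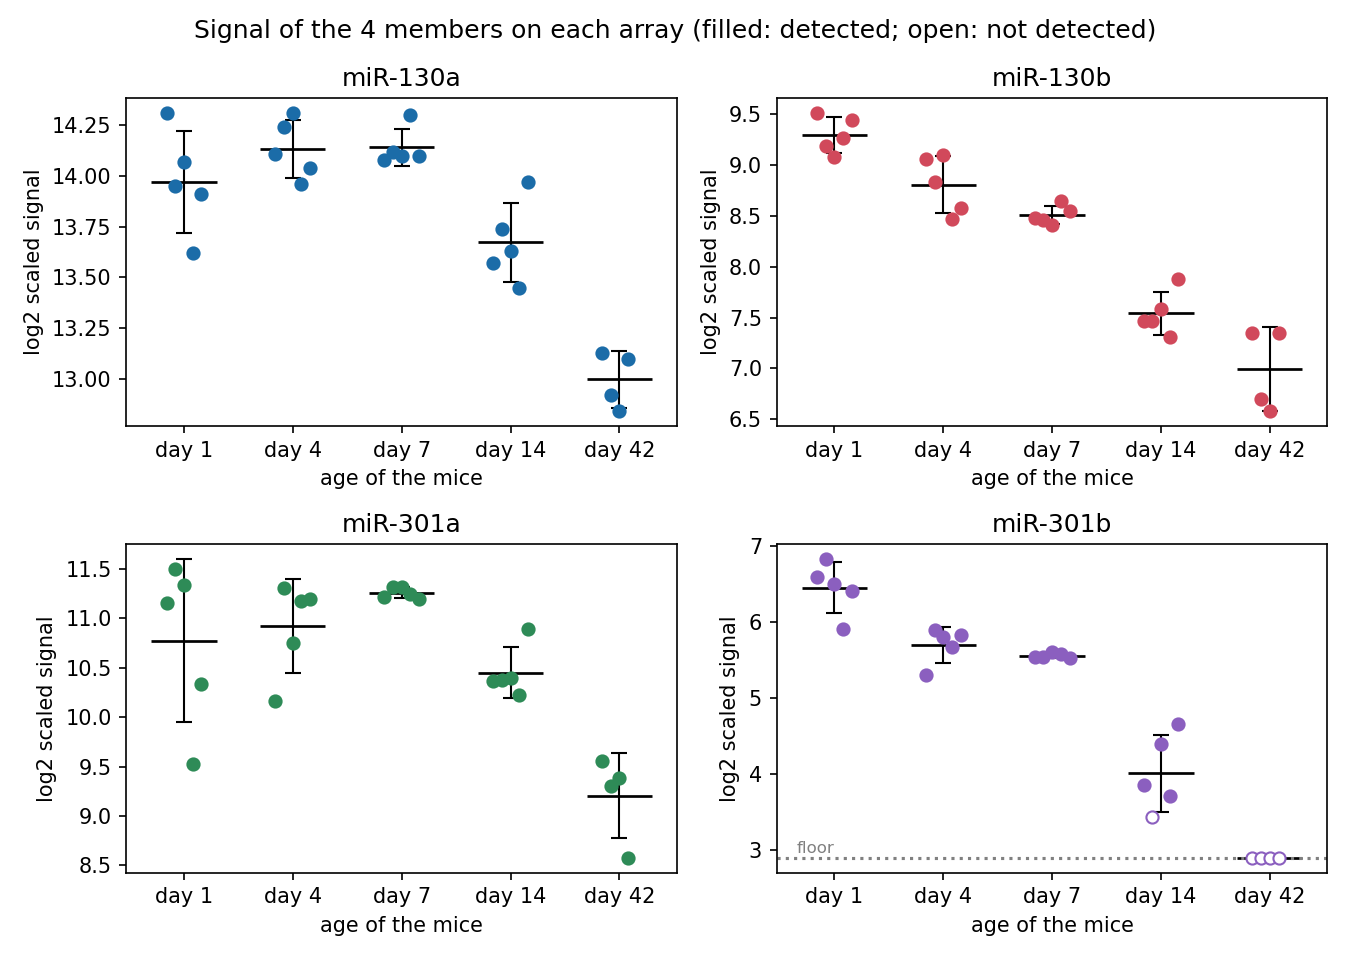
Log2 scaled signal (y axis) of each member on each of the 24 arrays, by age (x axis); filled points are arrays on which the member was detected, open points arrays on which it was not, and black lines are the mean and SD of an age. The members are highest within the first week, and miR-301b lies at the floor (2.90 on the log2 scale) on all 4 day 42 arrays; the y axes differ between panels.

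miR-130a, known from studies of vessel growth, had scaled signals of 20260, 15820, 17160, 12570 and 15340 on the 5 day 1 arrays. They were 17680, 19300, 20260, 15930 and 16810 at day 4 and 17380, 17800, 17600, 20180 and 17570 at day 7. Those 3 ages overlapped, and their means on the log2 scale were 13.97 ± 0.25, 14.13 ± 0.14 and 14.14 ± 0.09 (SD). At day 14 the values were 12190, 13700, 12700, 11190 and 16030, and at day 42 they were 8988, 7733, 7344 and 8810. Every day 14 array was below every day 7 array, and every day 42 array below every array of the other ages. In order of its mean level, miR-130a ran from day 42 through day 14, day 1 and day 4 to day 7, and the arrays of days 1, 4 and 7 overlapped.

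miR-130b differs from miR-130a by 2 bases outside the seed, and its scaled signals fell over a wider range. They were 729.9, 582.5, 540.5, 615.0 and 696.4 at day 1, 534.5, 454.7, 547.9, 355.3 and 382.0 at day 4, and 357.1, 351.6, 340.4, 400.9 and 373.1 at day 7. Day 7 and day 1 did not overlap, and 1 day 4 array lay above the lowest day 1 array. At day 14 the values were 177.0, 176.6, 191.8, 158.8 and 235.1, and at day 42 they were 163.2, 103.9, 95.55 and 163.5. Day 14 lay wholly below day 7, whereas day 42 and day 14 overlapped, since 2 of the 4 day 42 arrays stood above the lowest day 14 array. The mean level was lower at each age than at the age before it, with means of 9.30 ± 0.18, 8.81 ± 0.28, 8.51 ± 0.09, 7.54 ± 0.21 and 6.99 ± 0.41 (log2, SD).

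miR-301a, the member inside Ska2, had scaled signals of 2291, 2887, 2595, 740.0 and 1300 at day 1, and of 1147, 2544, 1728, 2328 and 2354 at day 4. The SDs were 0.82 and 0.48 on the log2 scale, the first of them the widest of any member at any age. At day 7 the arrays lay close together at 2393, 2563, 2557, 2430 and 2348 (SD 0.06). They were 1326, 1329, 1352, 1193 and 1901 at day 14, and 751.4, 630.5, 668.6 and 382.1 at day 42. Day 14 lay wholly below day 7 and day 42 wholly below day 14. Day 42 and day 1 overlapped, through day 1 replicate 4 alone, whose 740.0 was below the 751.4 of day 42 replicate 1.

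miR-301b, the neighbour of miR-130b in the genome, had scaled signals of 97.09, 114.0, 90.83, 60.41 and 85.54 at day 1, and of 39.52, 59.54, 56.11, 50.83 and 56.87 at day 4. The day 7 arrays gave 46.64, 46.63, 48.8, 48.01 and 45.98. Every day 1 array was above every array of the later ages. At day 14 the values were 14.48, 10.77, 21.14, 13.09 and 25.35, and the second of these was not called detected. At day 42 miR-301b was not detected on any of the 4 arrays, and its signals, 6.364, 1.725, 4.952 and 2.125, were all under the floor of 7.456 at which values were set for the test. Its level at day 42 is therefore only an upper bound.

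At day 4 against day 1, 1 of the 4 members was called lower, where 0.932% of all tested miRNAs were. miR-301b averaged 5.70 ± 0.24 at day 4 and 6.45 ± 0.34 at day 1 (log2, SD), a change of -0.75 ± 0.19 (SE, adjusted p 0.0436 by limma). That call was the least secure of the family: it was lost with 19 of the 24 arrays left out 1 at a time, when the adjusted p ran from 0.00773 to 0.118. The change of miR-130b was -0.49 ± 0.16 (adjusted p 0.159), that of miR-130a 0.16 ± 0.13 (0.585) and that of miR-301a 0.15 ± 0.29 (0.821), and none of these passed. At day 7 against day 4, no member was called (limma, adjusted p 0.682 to 0.968), where 0.311% of all tested miRNAs were called lower. The changes there were 0.01 ± 0.13 for miR-130a, -0.30 ± 0.16 for miR-130b, 0.34 ± 0.29 for miR-301a and -0.14 ± 0.19 for miR-301b.

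At day 14 against day 7 all 4 members fell, where 23.9% of all tested miRNAs were called lower. miR-301b averaged 4.01 ± 0.51 at day 14 and 5.56 ± 0.04 at day 7 (log2, SD), a change of -1.55 ± 0.19 (SE, adjusted p 1.41e-06), which is 2.92-fold lower. The change was -0.97 ± 0.16 for miR-130b (adjusted p 5.48e-05), -0.81 ± 0.29 for miR-301a (0.0369) and -0.47 ± 0.13 for miR-130a (0.00542). In each of the 4, every day 14 array was below every day 7 array, a pattern held by 25.2% of all tested miRNAs. The median change of the members was -0.89, against -0.05 over all tested miRNAs. The miR-301a call was lost when any of 9 of the 10 arrays of these ages was left out (adjusted p 0.0561 to 0.0826, all but day 14 replicate 5). The calls of miR-130a and miR-301a were lost when arrays were scaled to the 75th percentile over all names (changes -0.11 and -0.45), a scaling that moved the median of all tested miRNAs to 0.31.

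At day 42 against day 14 all 4 members fell again, where 28.0% of all tested miRNAs were called lower. miR-301a averaged 9.20 ± 0.43 at day 42 and 10.45 ± 0.26 at day 14 (log2, SD), a change of -1.25 ± 0.31 (SE, adjusted p 0.00295), which is 2.38-fold lower. miR-130a changed by -0.67 ± 0.13 (adjusted p 3.76e-04) and miR-130b by -0.55 ± 0.17 (0.0174). With its undetected day 42 arrays set to the lowest detected signal or the floor, miR-301b was 2.10-fold lower at day 42 (limma, adjusted p 1.54e-04 at the floored values). Its day 42 values in that test were all the floor, so the p reflects no spread measured at day 42. The fold of 2.10 is no strict bound, since miR-301b was not called detected at 10.77 on day 14 replicate 2, above the floor of 7.456. Day 42 and day 14 did not overlap for 3 of the 4 members, a pattern of 26.1% of all tested miRNAs, with miR-130b the exception. The miR-130b call was lost under several scalings, with changes of -0.21 (quantile), -0.27 (75th percentile over all names) and -0.31 (median of the common miRNAs), and when day 14 replicate 5 (adjusted p 0.0541) or either of day 42 replicates 2 and 3 was left out (0.0783 and 0.0961). It was also lost in the deposited table (-0.21, limma, adjusted p 0.467) and with the arrays of the 2 ages alone (-0.55, 0.0762). The miR-301b call was lost with the floor at 2 times its value, at a change of -0.25.

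Between the ends of the series, all 4 members were lower at day 42 than at day 1, where 42.9% of all tested miRNAs were called lower. miR-130b averaged 6.99 ± 0.41 at day 42 and 9.30 ± 0.18 at day 1 (log2, SD), a change of -2.30 ± 0.17 (SE, adjusted p 4.78e-11), which is 4.93-fold lower. miR-130a averaged 13.00 ± 0.14 at day 42 and 13.97 ± 0.25 at day 1, a change of -0.97 ± 0.13 (adjusted p 1.20e-06), or 1.96-fold lower. For miR-301a the means were 9.20 ± 0.43 at day 42 and 10.77 ± 0.82 at day 1, a change of -1.57 ± 0.31 (adjusted p 1.48e-04), or 2.97-fold lower. miR-301b was detected on all 5 day 1 arrays and on no day 42 array. With its day 42 arrays set in the same way, it was 11.4-fold lower at day 42 (limma, adjusted p 6.94e-13 at the floored values). It entered the tests through ages at which all arrays detected it, and its day 42 values in the test were all the floor. That p therefore reflects no spread measured at day 42. The size of this fall rests on the floor and the probes: the change at the floored values was -3.56, against -2.56 with the floor at 2 times its value, -2.82 with the brightest probe alone and -1.75 with normexp background correction. Day 42 and day 1 did not overlap for 3 of the 4 members, a pattern of 26.4% of all tested miRNAs.

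The members' median change between those ends was -1.94, against -0.35 over all tested miRNAs. The direction of the series as a whole turned on the scaling: 61 miRNAs were called higher and 138 lower at day 42, against 96 and 91 with the median of the common miRNAs and 123 and 92 with quantile normalization. miR-130b and miR-301b were called lower at day 42 under these scalings, and also with no scaling. miR-130a changed by 0.04 and miR-301a by -0.57 with no scaling, where the median of all tested miRNAs was 0.64 and neither was called.

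**Figure D2:**
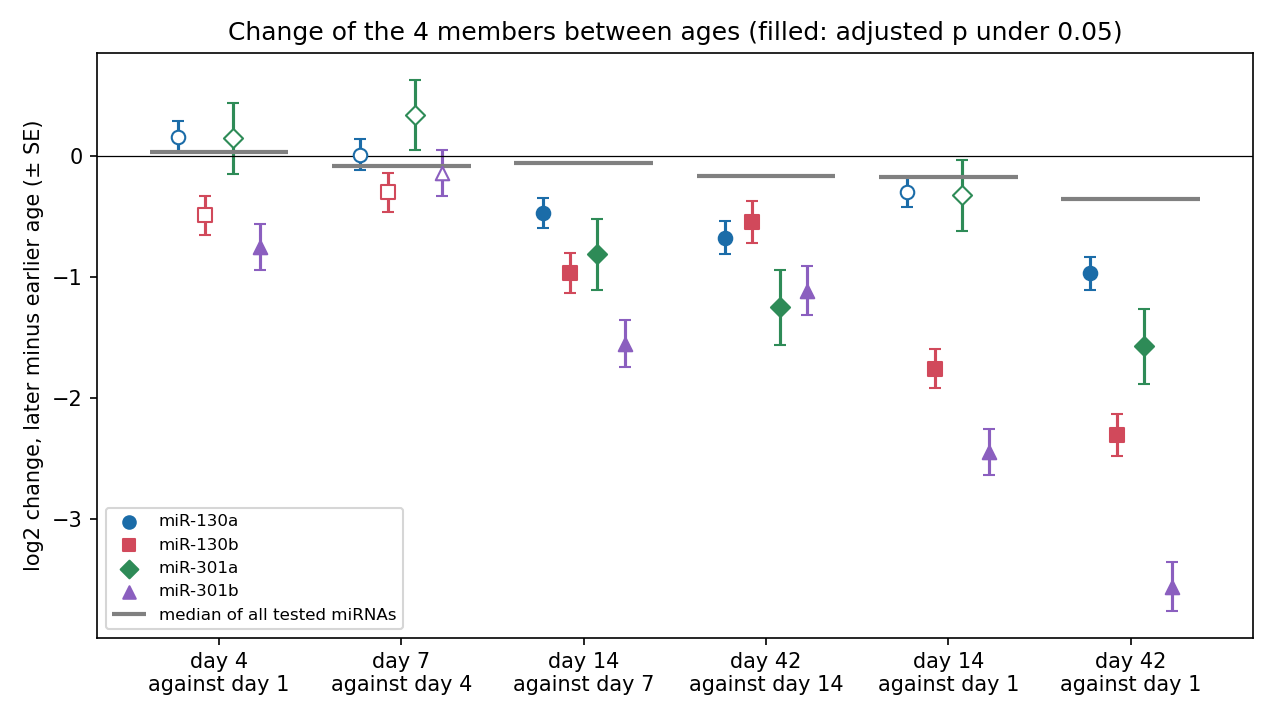
Log2 change between 2 ages (y axis, later minus earlier, ± SE of the limma model) of each member in the 6 comparisons (x axis); filled symbols passed an adjusted p under 0.05, and grey bars are the median of all tested miRNAs. All 4 members lie below the grey bar at day 14 against day 7, day 42 against day 14 and day 42 against day 1.

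**Figure D3:**
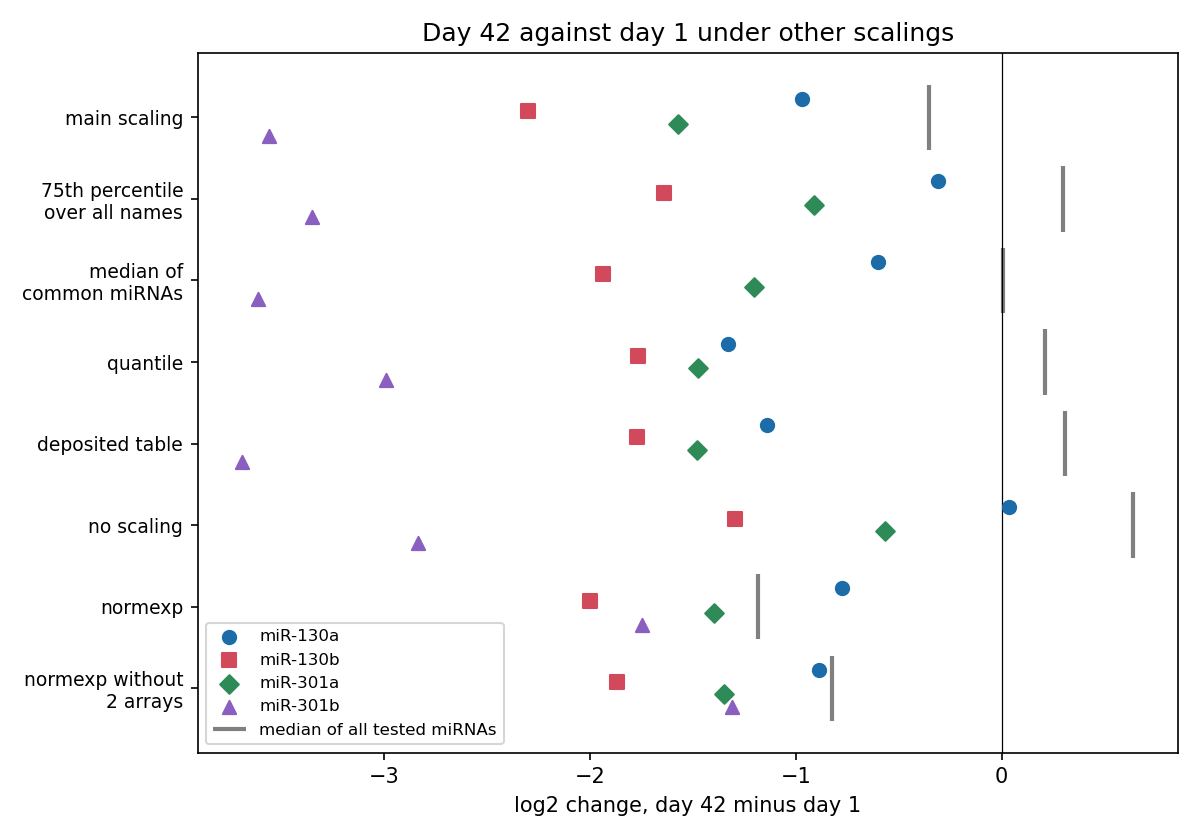
Log2 change of each member at day 42 against day 1 (x axis) under 8 ways of scaling or background correction (y axis), with the median of all tested miRNAs as a grey bar. Each member lies left of the grey bar in the upper 6 settings; with the normexp background correction miR-130a lies right of it at -0.78 against -1.18.

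At day 14 against day 1, 2 of the 4 members were called lower, where 32.6% of all tested miRNAs were. miR-301b averaged 4.01 ± 0.51 at day 14 and 6.45 ± 0.34 at day 1 (log2, SD), a change of -2.44 ± 0.19 (SE, adjusted p 3.62e-10). The change of miR-130b was -1.76 ± 0.16 (adjusted p 6.80e-09), or 3.38-fold lower. These are the 2 members that share a locus on chromosome 16. The other two did not pass, with -0.30 ± 0.13 for miR-130a (adjusted p 0.0516) and -0.32 ± 0.29 for miR-301a (0.349). With other processing, miR-130a passed as lower with quantile normalization (-0.69, adjusted p 1.84e-05), in the deposited table (-0.46, 0.00304), with the brightest probe (-0.33, 0.0198), with the floor at 2 times its value (0.0448) and among the miRNAs detected on all arrays (0.0472). It passed as higher with no scaling (0.79, adjusted p 0.0167), where the median of all tested miRNAs was 0.89. Both passed as lower without day 1 replicate 4, the dimmest array, which also held the lowest miR-130a and miR-301a signals of that age, at -0.38 for miR-130a (adjusted p 0.0112) and -0.63 for miR-301a (0.0349).

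The wide spread of miR-301a moved with the brightness of the arrays, taken as the log2 of the percentile used for scaling. Within ages, the scaled signal of miR-301a changed by 0.75 ± 0.18 (SE) per doubling of brightness, that of miR-301b by 0.31 ± 0.14, that of miR-130b by -0.36 ± 0.10 and that of miR-130a by -0.05 ± 0.09, with a median slope of -0.18 over all tested miRNAs. Its lowest values at day 1, day 4 and day 42 were all on the dimmest array of that age. With brightness as a covariate, the change of miR-301a was -1.14 at day 14 against day 1 (limma, adjusted p 0.00201) and -2.33 at day 42 against day 1 (2.88e-07). In the same comparisons miR-301b also changed more (-2.775 and -3.86), whereas miR-130b (-1.36 and -1.94) and miR-130a (-0.25 and -0.92) changed less. Brightness and age were partly confounded: the percentile ran from 923 to 2183 at day 1, 2302 to 4953 at day 14 and 1727 to 4151 at day 42. What sets the brightness of an array was not tested.

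**Figure D4:**
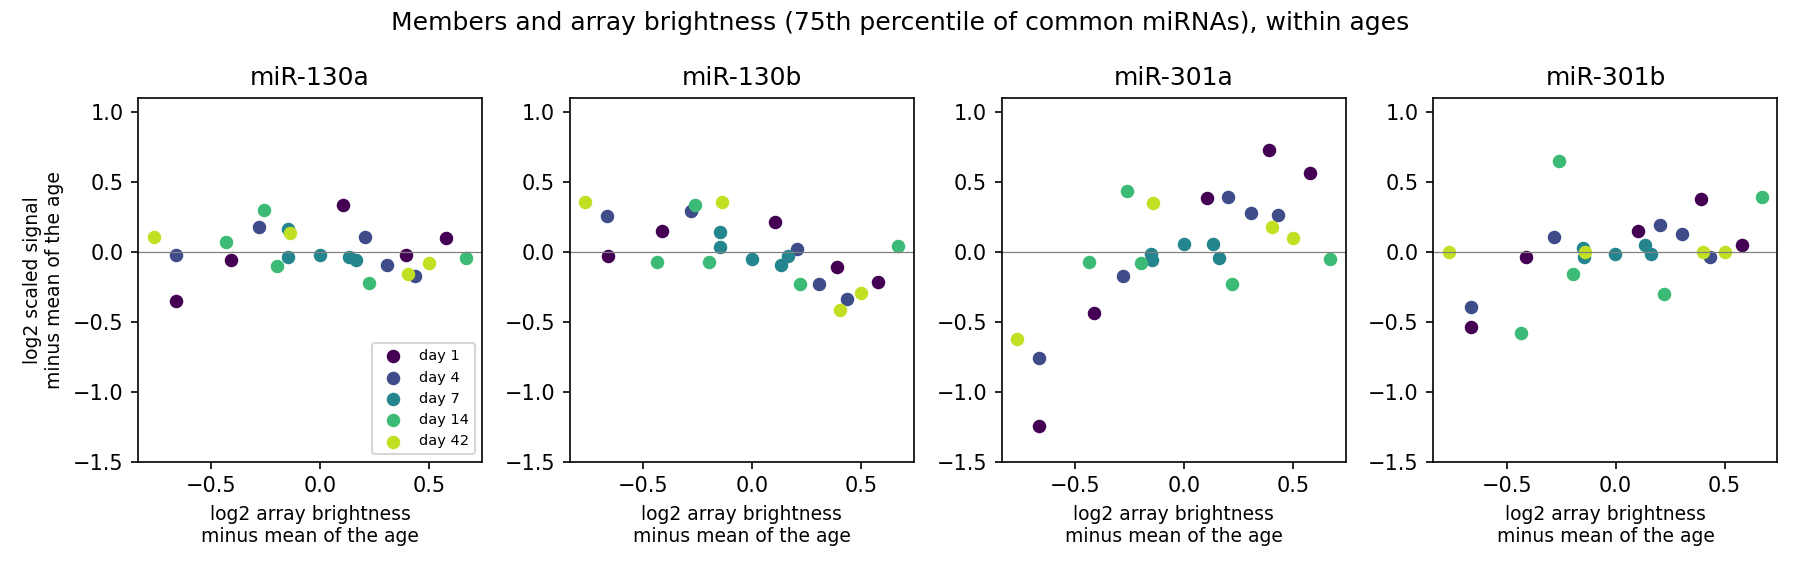
Log2 scaled signal of each member minus the mean of its age (y axis) against log2 array brightness minus the mean of the age (x axis), 1 point per array, coloured by age. The 4 lowest points of miR-301a lie at the dim end, on day 1 replicates 4 and 5, day 4 replicate 1 and day 42 replicate 4, whereas miR-130a shows no slope beyond its error.

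Whether 2 members changed unequally was tested on their log2 ratio within each array, in which a factor common to the array cancels. It does not cancel for miR-301b, which was floored after scaling, nor under methods such as quantile normalization that are not 1 factor per array. A dependence on array brightness that differs between members does not cancel either. The value of a ratio depends on the probes, so only its change with age can be read. The difference between day 42 and day 1 was tested with an exact permutation test (two-sided) in 6 pairs of members, with p-values adjusted over the 6; with 4 arrays against 5, the smallest p it can give is 0.0159.

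The log2 ratio of miR-130b to miR-130a averaged -6.0 ± 0.27 at day 42 and -4.67 ± 0.26 at day 1 (SD), a difference of -1.33 (exact permutation test, adjusted p 0.0238), with no overlap. Its size depended on the processing: it was -0.44 with quantile normalization and -1.01 with brightness as a covariate (both not tested). It was -0.63 in the deposited table and -1.22 with normexp background correction, and these 2 did not pass. Leaving out any day 42 array also lost the call, at -1.42 to -1.25 and an adjusted p of 0.0536 (exact permutation test). With 3 arrays against 5 the smallest p that the test can give is higher. The ratio of miR-301b to miR-130a differed by -2.59, that of miR-301b to miR-301a by -1.99 and that of miR-301b to miR-130b by -1.26, each with an adjusted p of 0.0238 in the exact permutation test and no overlap. Since miR-301b was at the floor at day 42, its true ratios there may be lower still. The ratio of miR-301b to miR-130b was -0.25 with the floor at 2 times its value and -0.52 with only the brightest probe of each miRNA, and neither passed. The ratio of miR-301a to miR-130a averaged -3.79 ± 0.49 at day 42 and -3.19 ± 0.65 at day 1, a difference of -0.60 that did not pass (exact permutation test, adjusted p 0.222). That of miR-301a to miR-130b differed by 0.73, with an adjusted p of 0.222 in the same exact permutation test. With brightness as a covariate the order of these 2 turned, with changes of -2.33 for miR-301a and -1.94 for miR-130b (not tested as a ratio). Both ratios with miR-301a overlapped between these ages, so unequal change of miR-301a against either miR-130 member was not shown.

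Most of the unequal change of miR-130b and miR-130a came early. Their mean log2 ratio stood at -4.67 for day 1, -5.32 for day 4, -5.63 for day 7, -6.13 for day 14 and -6.0 for day 42. The ratio was lower at every day 7 array (-5.69 to -5.56) than at every day 1 array (-4.99 to -4.35), and day 42 (-6.26 to -5.75) overlapped day 14 (-6.28 to -6.05).

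**Figure D5:**
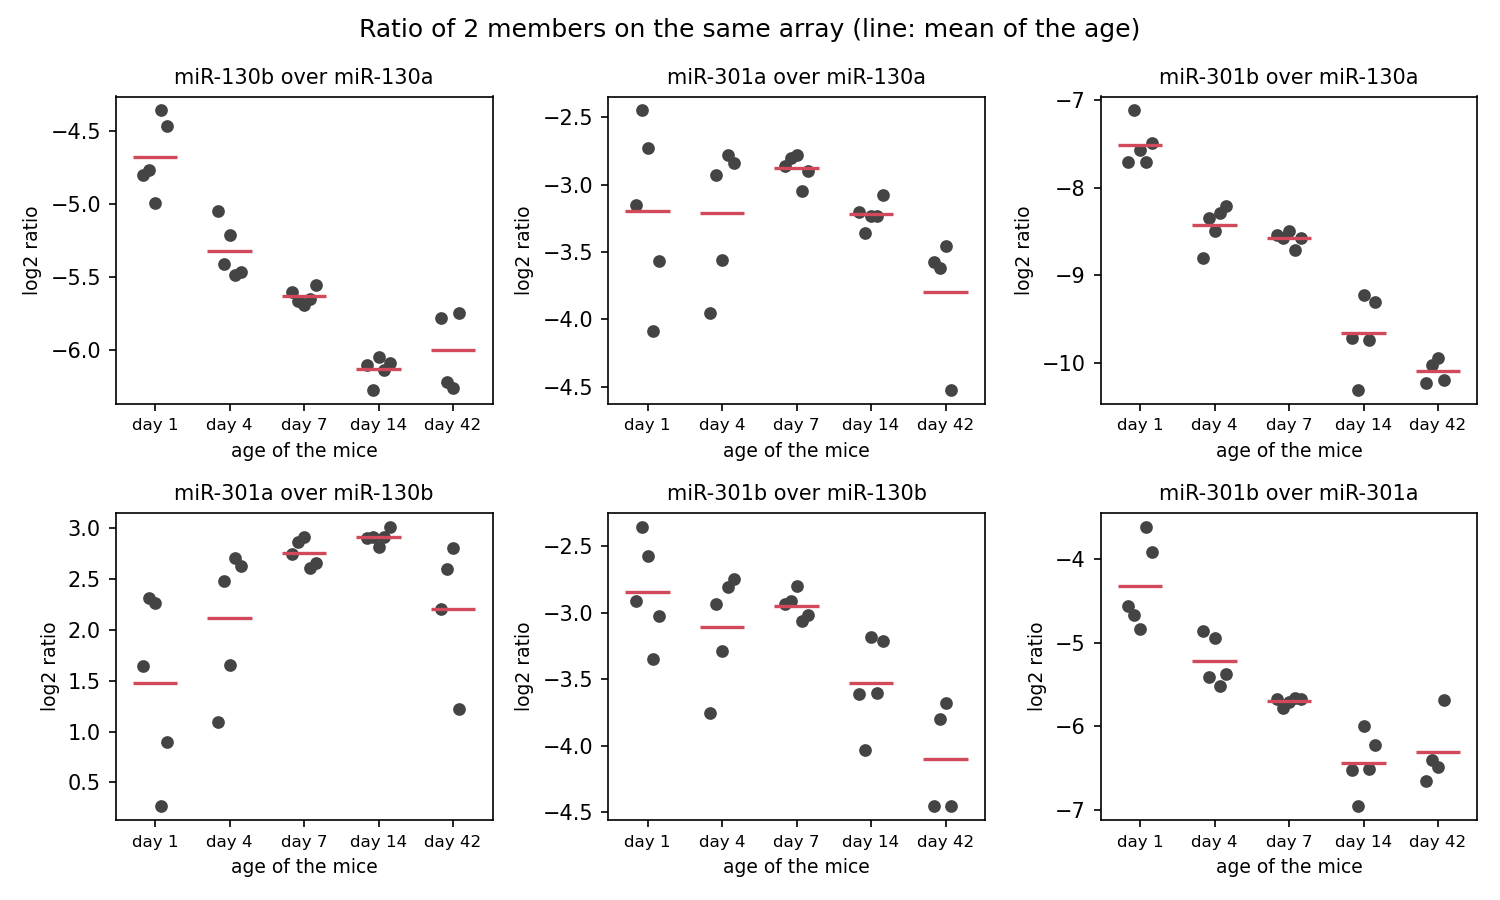
Log2 ratio of 2 members on the same array (y axis) by age (x axis), for the 6 pairs, with 1 point per array and the mean of each age as a red line. The ratio of miR-130b to miR-130a is highest at day 1 and lowest at days 14 and 42, and both ratios of miR-301a to a miR-130 member spread widely at days 1 and 4.

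The probes of a member moved alike. The 2 probes of miR-130a changed by -0.98 and -0.96 at day 42 against day 1, the 2 of miR-130b by -2.35 and -2.27, and the 2 of miR-301a by -1.55 and -1.63 (log2). miR-301b had 4 probes, of which 2 were at the floor at all ages, and the other two were at the floor of 2.90 at day 42, against means of 5.06 and 5.61 at day 1.

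The 3 slides of 8 arrays each held arrays of all 5 ages, so slide and age were not confounded. Within the slides the change at day 42 against day 1 was -1.05, -0.96 and -0.88 for miR-130a, -2.69, -2.22 and -1.91 for miR-130b, -1.05, -2.03 and -2.26 for miR-301a and -3.36, -3.93 and -3.56 for miR-301b. Every member was lower at day 42 on every slide. The same held on every slide at day 14 against day 7, with -0.68, -0.37 and -0.30 for miR-130a, -1.17, -1.04 and -0.68 for miR-130b, -0.94, -0.88 and -0.67 for miR-301a, and -1.78, -2.10 and -1.08 for miR-301b.

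The other arm of the miR-130b hairpin, miR-130b*, was dim and was not tested. It was detected on 3 of 5 day 1 arrays, 4 of 5 day 4 arrays and 2 of 5 day 7 arrays, and on 0 of 5 day 14 arrays and 0 of 4 day 42 arrays. Its mean scaled signal was 29.1 for day 1, 22.0 for day 4 and 15.1 for day 7. With the undetected arrays of days 14 and 42 set to the lowest detected signal or the floor, its level was 3.62-fold lower at day 42 than at day 1. At day 14 it was 3.49-fold lower than at day 1. These folds are no strict bounds, since the day 1 mean includes arrays on which it was not detected, at 16.18 and 35.14.

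miR-721, whose gene lies at chr5:136375716-136375803 inside Cux1, has the family's seed, but its signal did not follow the family's course. Each of its 4 probes lay near the floor of 2.90, with means by age from 3.43 to 4.10 (log2), so a change could be missed. It was detected on all 24 arrays, with a mean of 5.68 ± 0.47 at day 42 and 5.93 ± 0.49 at day 1 (log2, SD), and its change of -0.25 ± 0.30 did not pass (limma, adjusted p 0.492). No comparison of ages called it (adjusted p 0.492 to 0.972), and its scaled signals at each age overlapped those at every other.

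Other miRNAs on the array hold 6 bases of the family's sequence at the start of their own, and are shown to set the family beside its nearest relatives. Of the 496 mouse names without a star, 393 had a RefSeq mature sequence to search. In miR-19a and miR-19b, members of the miR-17-92 cluster, the last 6 bases of the seed (GUGCAA) are found within bases 1 to 9, and in miR-148a, miR-148b and miR-152 the first 6 bases of the members (CAGUGC) are; the shared bases are in capitals. miR-449c also holds CAGUGC there.
miR-19a: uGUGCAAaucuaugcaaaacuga
miR-19b: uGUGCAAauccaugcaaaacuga
miR-148a: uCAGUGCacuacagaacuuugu
miR-148b: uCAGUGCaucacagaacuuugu
miR-152: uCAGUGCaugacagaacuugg

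At day 42 against day 1, 2 of these 6 relatives were called, both lower, where 42.9% of all tested miRNAs were called lower. The calls of the relatives are given under 1 scaling only. miR-19b changed by -0.75 ± 0.22 (limma, adjusted p 0.00539) and miR-449c by -1.27 ± 0.50 (0.0316). The others, miR-148a at -0.30 ± 0.25 (0.299), miR-148b at 0.07 ± 0.14 (0.652), miR-152 at -0.26 ± 0.16 (0.168) and miR-19a at -0.64 ± 0.41 (0.177), did not pass. The signals of miR-449c lay near the floor of 7.456, from 6.986 to 12.41 at day 42. It was not detected on day 1 replicate 4, at 2.731, so the size of its change rests on the floor. At day 14 against day 1, miR-148a was higher by 0.57 ± 0.24 (limma, adjusted p 0.0462) and miR-148b by 0.49 ± 0.13 (0.00336), where 68 of the 322 tested miRNAs were called higher. Under the same scaling no called member of the family took this direction, though miR-130a did with no scaling. The lowest day 1 signals of miR-148a (908.5 and 1310) and miR-148b (198.1 and 249.8) were on replicates 4 and 5, the dimmest arrays of that age. On the other day 1 arrays miR-148a was at 2004, 2995 and 2527, against 2437 to 2991 at day 14. Both relatives overlapped between these ages, and the part of array brightness in their rise was not tested. At day 42 against day 14, 4 of the 6 were called, all lower, where 28.0% of all tested miRNAs were called lower. miR-148a changed by -0.87 ± 0.25 (limma, adjusted p 0.00901), miR-19b by -0.66 ± 0.22 (0.0252), miR-152 by -0.52 ± 0.16 (0.0164) and miR-148b by -0.42 ± 0.14 (0.0247).

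Over the 24 arrays, the log2 signals of miR-130b and miR-301b, which share a locus, had a Pearson correlation of 0.948. That of miR-130a with miR-301a was 0.860, with miR-301b 0.848 and with miR-130b 0.821. The correlation of miR-301a with miR-301b was 0.763 and with miR-130b 0.596. These values pool the 5 ages and the arrays share their scaling, so any common course with age enters them.

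The 3 other tested miRNAs most like each member, by Pearson correlation over the 24 arrays, differed between members. For miR-130a they were miR-199a-3p (0.968), miR-181d (0.964) and miR-340-3p (0.963), and for miR-301a miR-19b (0.974), miR-503 (0.970) and miR-18a (0.966). For miR-130b they were miR-127 (0.978), miR-329 (0.975) and miR-337-5p (0.975), and for miR-301b miR-382* (0.984), miR-154* (0.982) and miR-381 (0.979). The genes of these last 6 all lie on chromosome 12, at chr12:109585789-109738498, while Mir130b and Mir301b lie on chromosome 16. At day 42 against day 1, miR-127 changed by -4.12 ± 0.27 and miR-381 by -3.31 ± 0.27 at the floored values. Like miR-301a, miR-19b had its lowest signals of day 1, day 4 and day 42 on the dimmest array of that age. The part of array brightness in the likeness of miR-19b and miR-301a was not tested.

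A whole lung holds many cell types, and in these data fewer cells of a type and less of a miRNA per cell cannot be told apart. Markers of several cell types moved between day 42 and day 1, where 61 of the 322 tested miRNAs were called higher and 138 lower. Both endothelial markers (miR-126-3p and miR-126-5p) and all 4 leukocyte markers (miR-142-3p, miR-142-5p, miR-223 and miR-150) rose, with median changes of 0.77 and 1.73. The summed endothelial level ran from 15.97 to 16.40 at day 42 and from 15.01 to 15.63 at day 1 (log2). The summed leukocyte level ran from 13.30 to 13.73 at day 42 and from 12.01 to 12.90 at day 1. Of the 5 markers of fibroblasts and smooth muscle (miR-199a-3p, miR-199a-5p, miR-214, miR-143 and miR-145) 3 fell, with a median change of -0.78 (that of all tested miRNAs was -0.35), and their sum ran from 13.59 to 13.89 at day 42 and from 14.24 to 14.66 at day 1. Among the 5 epithelial markers 1 rose, among the 4 of striated muscle 1 fell, and among the 3 of red blood cells none was called. Epithelial sums ran from 13.87 to 14.08 at day 42 and from 13.63 to 13.99 at day 1, and those of striated muscle from 10.27 to 11.95 and from 8.52 to 15.23 at the same ages. Sums of the red blood cell markers ran from 15.24 to 16.41 at day 42 and from 14.57 to 16.01 at day 1. Apart from 1 marker of striated muscle, each of these markers was detected on all arrays. The calls of markers were made under 1 scaling only. The part of these cell types in the changes of the family was not tested.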

How the data were processed

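Per the labels, total RNA of whole mouse lungs was labelled with Cy3 and hybridised to 24 Agilent 1-colour miRNA arrays, 1 per biological replicate, and scanned images were quantified in Agilent Feature Extraction (version 10.7.1.1 per the file headers). The deposited array files hold intensity values that this software background-subtracted per spot, with no adjustment between arrays. The deposited series table holds log2 values for 672 names, all columns with a median of 2.41; how the authors scaled them is not given in the sources used here, and it served as an alternative.

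Spots of a probe were averaged without the 319 to 523 outlier spots of an array, and probe means were added up per miRNA. Each array was divided by its 75th percentile over the 228 miRNAs detected on all arrays, then brought to the median of these percentiles (2316), values under a floor of 7.456 were raised to it, and log2 was taken. The floor is the lowest scaled signal that a detected miRNA reached on an array, as the median of the 24 arrays; detection is the flag in the files. Tests covered the 322 miRNAs that all arrays of 1 age or more detected, with limma 3.58.1 in R 4.3.3, in 1 model of the 5 ages (19 residual degrees of freedom), with Benjamini-Hochberg adjustment within each comparison. Where a member or miR-130b* was detected on no array of an age, that age's arrays were each set to the highest of its own signal, the lowest detected signal and the floor. A fold given in this way moves with the floor and is no strict bound. The script was tested on simulated data. Ratios of members were compared with exact permutation tests (scipy 1.17.1).

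The alternatives covered scaling, background, probes, floor, filter, slide, replicate block, array brightness and each array left out. The files used here hold no mean spot signal, so the normexp correction (offset 50) used the median spot and background signals. Replicate numbers were checked for pairing: deviations of same-numbered arrays correlated between -0.86 and 0.84 (median -0.02 over 46 pairs). Those of arrays with other numbers correlated between -0.92 and 0.90 (median -0.01 over 184 pairs). Correlations this wide cannot exclude pairing, and the numbers were not used as pairs. The number of arrays limits the precision of every value. The members and the marker and relative lists were chosen with earlier results of these data known. Named beyond the members were array miRNAs with the seed or 6 bases of it, the other arms, and the 3 tested miRNAs most correlated with each member.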

Additional observations from a re-analysis of the deposited data

Results flagged for a closer look

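In 19 groups of 4 or 5 arrays of a member at 1 age, 2 held an array far from the others by Dixon's test, which chance alone flags in about 1 of 20 groups. The highest miR-130a signal at day 7, 14.30 on the log2 scale in replicate 4, stood above the next at 14.12, and this gap made up 0.838 of the range of the 5 arrays. The highest miR-301a signal at day 14, 10.89 in replicate 5, stood above the next at 10.40, a gap of 0.731 of the range.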

How the results depend on the processing

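The fall of all 4 members at day 42 against day 1 was called under the alternatives run except no scaling (miR-301b was not tested where only miRNAs detected on all arrays were), where 2 members were called and miR-130a changed by 0.035 and miR-301a by -0.57. Members called at day 14 against day 7 numbered 2 with no scaling, 2 when every name entered the 75th percentile and 0 with normexp (3 without its 2 odd arrays), against 4. At day 42 against day 14 they numbered 1 with no scaling and 2 with normexp, with or without its 2 odd arrays, against 4. They numbered 3 there with the 75th percentile over all names, the median of the common miRNAs, quantile normalization, the deposited table and the 2 ages alone, each without miR-130b. With the floor at 2 times they also numbered 3, without miR-301b. At day 14 against day 1 they numbered 1 with normexp, 3 in 6 settings (brightness as a covariate, brightest probe, deposited table, floor at 2 times, quantile normalization and no scaling, the last with miR-130a higher) and 4 without the dim arrays, against 2. The member called at day 4 against day 1 was lost (0 called) with quantile normalization, no scaling, normexp with or without those 2 arrays, the deposited table, the brightest probe, the 2 ages alone and the replicate block; the replicate block changed no other call of a member. With arrays left out in turn, 0 to 1 members were called at day 4 against day 1, and 2 to 4 at day 14 against day 1.

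Signs of called members turned for miR-130a at day 42 against day 1 with no scaling and for miR-301b at day 14 against day 7 with normexp. The other turned signs were of changes not called under the settings of the report. When every name entered the percentile, miR-130a was -0.0054 at day 7 against day 4 and 0.084 at day 14 against day 1, and miR-301a 0.058 at day 14 against day 1. With no scaling, miR-130a was 0.79 (called higher, adjusted p 0.0167) and miR-301a 0.77 at day 14 against day 1, and miR-130b 0.054 and miR-301b 0.21 at day 7 against day 4. miR-130a was -0.011 (brightest probe), -0.040 (median of the common miRNAs) and -0.030 to 0.056 (arrays left out) at day 7 against day 4, and -0.039 with quantile normalization at day 4 against day 1. miR-301a was -0.13 with brightness as a covariate, -0.22 without the dim arrays and -0.16 to 0.34 with arrays left out at day 4 against day 1.

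The normexp correction left a median spot of 1520 and 962 on day 14 replicate 3 and day 1 replicate 3, against at most 81.4 elsewhere; the setting without these arrays, like that without the dim arrays, was added after seeing the data. The dim arrays were the 3 dimmest of all and the dimmest of day 42; they hold the 4 lowest miR-301a signals relative to their ages, so its larger change there follows from the choice. With normexp, miR-301b was 0.27 at day 14 against day 7, and the ratios at day 42 against day 1 were -1.22 (miR-130b to miR-130a), -0.97 (miR-301b to miR-130a), 0.25 (miR-301b to miR-130b) and -0.35 (miR-301b to miR-301a), none past the threshold; the cause was not tested. The ratio of miR-130b to miR-130a was -0.63 in the deposited table, that of miR-301b to miR-130b -0.52 with the brightest probe and -0.25 with the floor at 2 times, and that of miR-301b to miR-301a -0.99 with that floor, none of them past the threshold. Without 1 array these ratios ran from -1.42 to -1.25 (miR-130b to miR-130a), -2.64 to -2.49 (miR-301b to miR-130a), -1.39 to -1.13 (miR-301b to miR-130b) and -2.19 to -1.81 (miR-301b to miR-301a). With any day 42 array left out the adjusted p was 0.0536 (exact permutation test), where 3 arrays against 5 also raise the smallest p that the test can give.

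Counts of miRNAs called moved by over 1.5 times, against 211 in the F-test, to 92 with normexp; against 173 at day 14 against day 1, to 52 with normexp; against 101 at day 14 against day 7, to 156 (75th percentile over all names), 153 (brightness), 168 (2 ages alone), 9 and 52 (normexp, all arrays and without 2) and 58 (miRNAs detected on all arrays); and against 105 at day 42 against day 14, to 65 (no scaling), 22 and 42 (normexp) and 63 (miRNAs detected on all arrays). At day 4 against day 1 it was 5, and 0 to 28 elsewhere.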

Other observations

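The 6 miRNAs most like miR-130b and miR-301b over the 24 arrays all come from a span of chromosome 12 at chr12:109585789-109738498 (GRCm38.p6) that holds 48 annotated miRNA genes. Of the 33 tested names matched to genes in that span, 32 were called lower and 0 higher at day 42 against day 1 (limma), with changes from -4.89 to -0.47 and a median of -3.38 on the log2 scale. The span was chosen after its values were seen, so these counts describe it and are no test. On chromosome 16, miR-130b changed by -2.30 over the same ages. miR-301b was 11.4-fold lower with its undetected arrays set to the lowest detected signal or the floor, a size that rests on the floor. Its change was -3.56 at the floored values and -2.56 with the floor at 2 times its value.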
